A study of Mus musculus with 12 samples.

Results

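The 10 genes described here encode vascular endothelial growth factor (VEGF) ligands (Vegfa, Vegfb, Vegfc and Pgf), their receptors (Flt1, Kdr and Flt4), the angiopoietins Angpt1 and Angpt2, and the angiopoietin receptor Tek. They were chosen by gene symbol, with earlier results of these data known. They make up 10 of 54146 gene records in the count tables of 12 mouse heart libraries. The study sequenced polyadenylated RNA from hearts taken 6 weeks after surgery, to follow the molecular effects of losing the noncoding RNA Nron in cardiac hypertrophy. TAC KO is NRON knockout mice after transverse aortic constriction (TAC), a banding of the aorta that puts the left ventricle under pressure overload. TAC WT is wild-type mice after TAC, and Sham WT is wild-type mice after sham surgery, with 4 libraries in each group. Knockout hearts after sham surgery were not analysed here, so an effect of the knockout without banding cannot be told apart from one that needs it. Strain, age, sex and the way the knockout was made are not given in the labels. Whether each library stands for a different mouse is not stated, and p-values therefore measure only the spread between libraries, which may be technical.

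VEGF ligands are secreted proteins that bind receptor tyrosine kinases on endothelial cells, where Kdr carries most of the signal for growth, survival and permeability of vessels. Flt1 binds Vegfa, Vegfb and Pgf and can act as a decoy, and Flt4 is the receptor for Vegfc, best known from lymphatic vessels. Angpt1 activates Tek and stabilises vessels, while Angpt2 can oppose it. In the heart, cardiomyocytes are a known source of Vegfa and Vegfb, and the receptors are mainly endothelial.

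Library totals ranged from 26288519 to 35945770 counts. Both Nron records on chromosome 2 had 0 counts over the 12 libraries, so these counts do not check the knockout. The 12 cardiomyocyte markers summed to 87814 to 94561 counts-per-million (CPM) in TAC KO, 85716 to 90224 in TAC WT and 92414 to 103303 in Sham WT. Of 6 atrial genes, Sln, Myl7, Bmp10 and Dhrs9 stayed at or under 0.399 CPM in every library. Myl4 had 1.58 to 2.29 CPM in TAC KO, 1.89 to 2.45 CPM in TAC WT and 2.06 to 2.75 CPM in Sham WT, and Stard10 had 14.0 to 17.5 CPM, 9.88 to 13.5 CPM and 15.6 to 20.4 CPM in these groups. The library trend, as the log2 level of the highest minus the lowest quintile of genes by GC content, was 0.104 to 0.436 in TAC KO and -0.152 to -0.042 in the wild-type libraries. For the longest minus the shortest quintile of genes it was -0.261 to -0.152 in TAC KO and -0.038 to 0.193 in the wild types. Values with these trends removed are therefore given for each of the 10 genes whose call they change. They are also given for gene lists in TAC KO against TAC WT and against Sham WT where they change a count. In TAC KO against TAC WT 4040 of 15477 tested genes were called with the trends removed, 2127 higher and 1913 lower, against 5110 without removal. In TAC KO against Sham WT 3264 were called with the trends removed, 1682 higher and 1582 lower, against 4273 without removal.

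Among the ligands, Vegfa and Vegfb had by far the highest levels per exon length, and they moved in opposite directions. Vegfa, the main ligand of Kdr, was higher in TAC WT than in Sham WT and lower in TAC KO than in either wild-type group. Vegfb, a ligand of Flt1 linked to fatty acid handling and vessel survival, was lower in TAC WT than in Sham WT. In TAC KO it stood close to the sham level, although its difference from TAC WT did not hold with the GC and length trends removed.

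Vegfa (ENSMUSG00000023951.17, GRCm38 chr17:46016993-46032369, minus strand) had 270.3, 387, 363 and 363 CPM in TAC KO, 619, 618, 695 and 526 CPM in TAC WT, and 412, 454, 422 and 491 CPM in Sham WT. No library of any group fell within the range of another group, and TAC WT was highest. The difference of TAC WT from Sham WT was 0.47 on the log2 scale (SE 0.11, edgeR quasi-likelihood test, adjusted p = 0.00752), and that of TAC KO from TAC WT was -0.83 (SE 0.11, adjusted p = 0.000147). Against Sham WT, the TAC KO value was -0.36 (log2, SE 0.11, edgeR adjusted p = 0.0228). The difference of TAC WT from Sham WT was 0.42 (adjusted p = 0.0588) with 1 surrogate variable in the edgeR fit. The call of TAC KO against Sham WT did not hold without TAC KO 1 (-0.25, edgeR adjusted p = 0.0515), which had the lowest value, and was also lost without Sham WT 2 (adjusted p = 0.0540) or Sham WT 4 (adjusted p = 0.0760).

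Vegfb (ENSMUSG00000024962.13, chr19:6982473-6987651, minus strand) had 275, 238, 233 and 261 CPM in TAC KO, 191, 208, 222 and 198 CPM in TAC WT, and 263, 257, 229.9 and 244 CPM in Sham WT. All TAC WT libraries lay below all others, while TAC KO and Sham WT overlapped. TAC WT differed from Sham WT by -0.28 (log2, SE 0.07, edgeR adjusted p = 0.0127) and TAC KO from TAC WT by 0.30 (SE 0.07, adjusted p = 0.00611). Vegfb is a short gene of high GC content, in the shortest quintile by length and the highest by GC. With the GC and length trends removed, the difference of TAC KO from TAC WT was 0.09 (edgeR adjusted p = 0.291). On the same basis TAC KO minus Sham WT was -0.18 (log2, adjusted p = 0.0434), against 0.02 (adjusted p = 0.881) without the correction. With 1 surrogate variable TAC WT minus Sham WT was -0.21 (edgeR adjusted p = 0.123). Of the 12 cardiomyocyte markers, 3 were higher and 0 lower in TAC KO than in TAC WT. With the GC and length trends removed, 2 were higher and 1 lower. In TAC WT against Sham WT, 1 was higher and 3 lower. Beside these counts, 33% of all tested genes were called in TAC KO against TAC WT and 19.7% in TAC WT against Sham WT. The part of cardiomyocytes in the Vegfa and Vegfb differences was not tested.

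The other ligands were expressed at low levels and passed no comparison in the edgeR fit of all libraries. Vegfc (ENSMUSG00000031520.6, chr8:54077606-54187096, plus strand), the ligand of Flt4, had 6.94 to 9.10 CPM in TAC KO, 8.80 to 10.7 in TAC WT and 8.24 to 10.4 in Sham WT. Its groups overlapped in each comparison, and TAC KO against TAC WT gave -0.26 (log2, SE 0.11, edgeR adjusted p = 0.0796). Without TAC WT 2 that difference passed, at -0.32 (edgeR adjusted p = 0.0487). Pgf (ENSMUSG00000004791.7, chr12:85166635-85177790, minus strand), the placental growth factor that binds Flt1, had 4.44 to 8.07 CPM in TAC KO, 4.30 to 5.52 in TAC WT and 5.27 to 6.86 in Sham WT. Its 8.07 CPM came from TAC KO 1, well above the 4.44 to 5.38 CPM of the other TAC KO libraries, and the difference from TAC WT was 0.25 (log2, SE 0.17, edgeR adjusted p = 0.290). In TAC WT against Sham WT, Pgf gave -0.36 (log2, SE 0.17, edgeR adjusted p = 0.164), and with limma voom it passed at -0.40 (adjusted p = 0.0466).

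**Figure D1:**
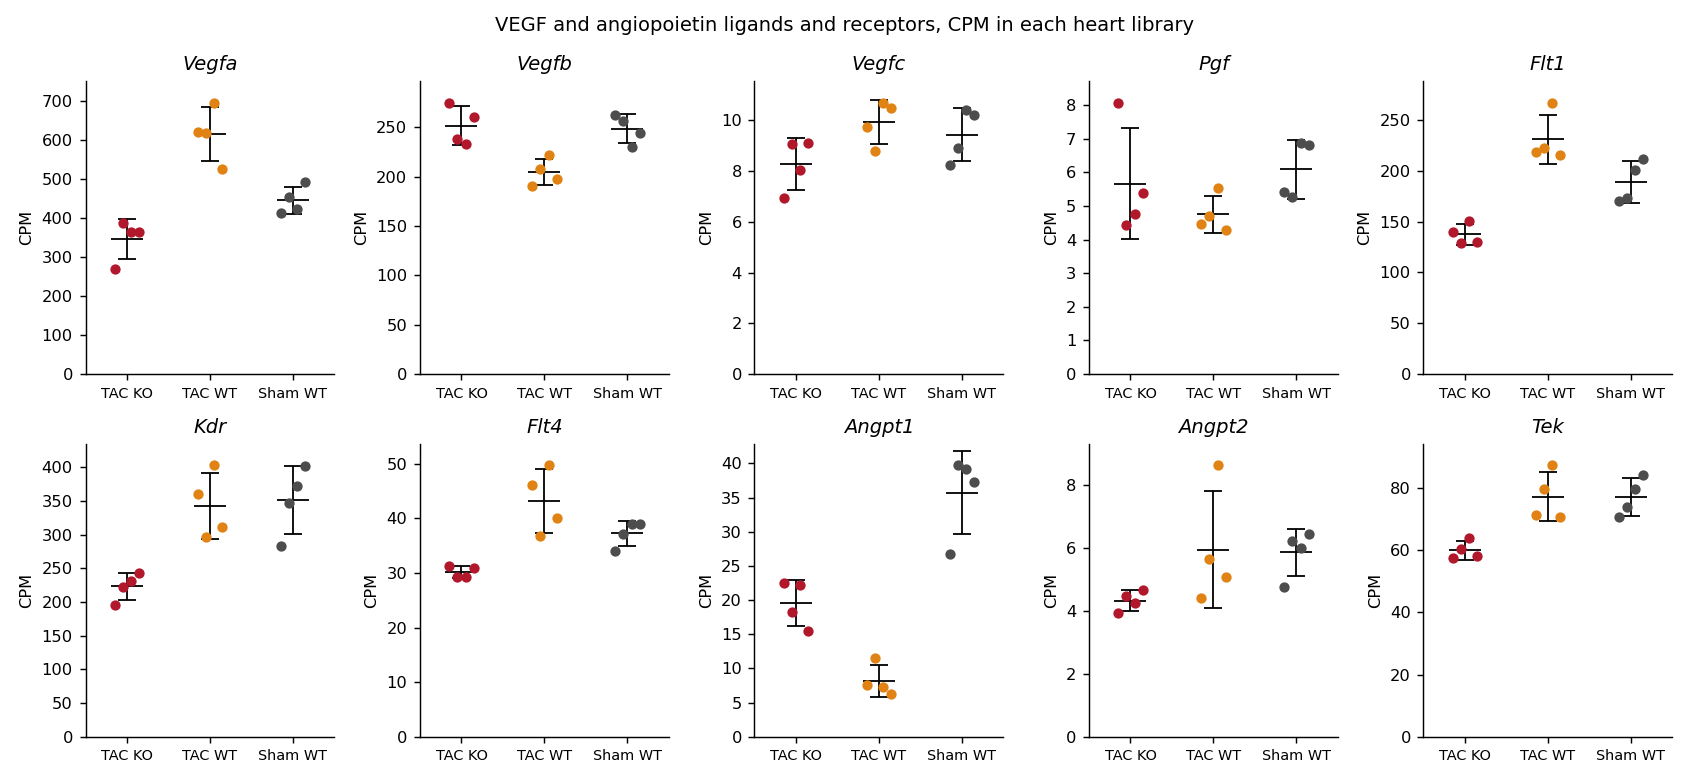
Each panel plots 1 gene, with CPM on the vertical axis from 0, a point for each of 4 libraries in TAC KO, TAC WT and Sham WT, and the mean with its SD as bars. Vegfa, Flt1 and Angpt1 split into 3 separate ranges, while the TAC KO libraries of Kdr, Flt4 and Tek lie below both wild-type groups.

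All 4 receptor genes were lower in TAC KO than in TAC WT, and also lower in TAC KO than in Sham WT. Flt1 alone among them also passed in TAC WT against Sham WT, where it was higher. In bulk heart RNA, fewer endothelial cells and less receptor RNA per cell cannot be told apart.

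Flt1 (ENSMUSG00000029648.13, chr5:147561604-147726011, minus strand) had 140.2, 129, 151 and 130.4 CPM in TAC KO, 219, 222, 267 and 216 CPM in TAC WT, and 170.0, 173, 201 and 212 CPM in Sham WT. The 3 groups did not overlap, with TAC KO lowest and TAC WT highest. TAC KO differed from TAC WT by -0.75 (log2, SE 0.09, edgeR adjusted p = 8.68e-05) and from Sham WT by -0.46 (SE 0.09, adjusted p = 0.00224). The difference of TAC WT from Sham WT was 0.29 (log2, SE 0.09, edgeR adjusted p = 0.0359). It missed the threshold without TAC WT 3 (0.21, edgeR adjusted p = 0.0971), Sham WT 1 (adjusted p = 0.0916) or Sham WT 2 (adjusted p = 0.0927), with the GC and length trends removed (0.26, adjusted p = 0.0606), and with 1 surrogate variable (0.29, adjusted p = 0.12).

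Kdr (ENSMUSG00000062960.10, chr5:75932827-75978458, minus strand) had 196, 222, 232 and 243 CPM in TAC KO, 361, 297, 403 and 311 CPM in TAC WT, and 284, 347, 373 and 402 CPM in Sham WT. Every TAC KO library lay below every wild-type library, and the wild-type groups overlapped. TAC KO differed from TAC WT by -0.62 (log2, SE 0.11, edgeR adjusted p = 0.00125) and from Sham WT by -0.65 (SE 0.11, adjusted p = 0.00107). TAC WT differed from Sham WT by -0.04 (log2, SE 0.11, edgeR adjusted p = 0.865).

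Flt4 (ENSMUSG00000020357.3, chr11:49609263-49652739, plus strand) had 31.2, 29.3, 29.2 and 31.0 CPM in TAC KO, 46.2, 36.8, 49.7 and 40.1 CPM in TAC WT, and 34.1, 37.1, 39.0 and 39.0 CPM in Sham WT. The TAC KO libraries were again the lowest, within a span of 29.2 to 31.2 CPM. The log2 difference of TAC KO was -0.52 from TAC WT (SE 0.09, edgeR adjusted p = 0.000603) and -0.31 from Sham WT (SE 0.09, adjusted p = 0.0165). The call against Sham WT was lost without Sham WT 3 (edgeR adjusted p = 0.0515) or Sham WT 4 (adjusted p = 0.0507). TAC WT against Sham WT gave 0.21 (log2, SE 0.08, edgeR adjusted p = 0.0924), and without TAC WT 2 it passed at 0.28 (adjusted p = 0.0177).

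Tek (ENSMUSG00000006386.15, chr4:94739289-94874976, plus strand) had 57.4, 60.3, 63.9 and 58.0 CPM in TAC KO, 71.2, 79.5, 87.2 and 70.5 CPM in TAC WT, and 70.6, 73.8, 79.7 and 84.1 CPM in Sham WT. Again no TAC KO library reached the wild-type range, and both wild-type groups averaged 77.1 CPM (SD 7.86 in TAC WT and 6.03 in Sham WT). The TAC KO difference was -0.36 against TAC WT (log2, SE 0.08, edgeR adjusted p = 0.00316) and against Sham WT (SE 0.08, adjusted p = 0.00396). These comparisons share the TAC KO libraries, and TAC KO against TAC WT shares TAC WT with TAC WT against Sham WT, so their values are given side by side and do not support each other.

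Flt1, Kdr and Flt4 are in the longest quintile of genes by length of the longest transcript, the class that was lower in TAC KO libraries. Flt4 is also in the highest quintile by GC content, a class that was higher in TAC KO libraries. With the GC and length trends removed, TAC KO still differed from TAC WT by -0.63 for Flt1, -0.51 for Kdr, -0.49 for Flt4 and -0.27 for Tek on the log2 scale. The calls of these receptors in that comparison passed under all 21 alternatives tried for single genes, left-out libraries included. TAC KO 1 had the widest GC trend, 0.436, and without it the same differences were -0.76, -0.56, -0.54 and -0.34 in the same order.

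The 250 bases before the RefSeq start sites of the 4 receptors, whose levels fell together in TAC KO, and of Vegfa and Vegfb, which moved apart, are shown from GRCm38.p6, read 5′ to 3′ on the strand of the gene. Capitals mark matches on either strand to ACGTG (the core of hypoxia response elements), GGAAA (the core bound by NFAT factors, whose transport Nron is known to restrain) or CGGAA (an ETS core), and GGAAA and CGGAA can overlap. The Flt1 window is chr5:147726012-147726261 (minus), that of Kdr is chr5:75978456-75978705 (minus), that of Flt4 is chr11:49609429-49609678 (plus) and that of Tek is chr4:94739039-94739288 (plus). The Vegfa window is chr17:46032378-46032627 (minus), and the Vegfb window is chr19:6987652-6987901 (minus).
Flt1: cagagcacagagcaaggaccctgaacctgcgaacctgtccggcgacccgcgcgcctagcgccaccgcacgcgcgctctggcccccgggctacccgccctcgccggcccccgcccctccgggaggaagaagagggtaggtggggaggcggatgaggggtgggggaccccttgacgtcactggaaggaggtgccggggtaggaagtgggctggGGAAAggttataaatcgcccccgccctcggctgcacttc
Kdr: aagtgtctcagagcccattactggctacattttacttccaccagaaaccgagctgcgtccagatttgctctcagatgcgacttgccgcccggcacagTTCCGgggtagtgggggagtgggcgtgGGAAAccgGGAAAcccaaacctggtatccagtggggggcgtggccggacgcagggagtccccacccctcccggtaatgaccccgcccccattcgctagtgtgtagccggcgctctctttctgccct
Flt4: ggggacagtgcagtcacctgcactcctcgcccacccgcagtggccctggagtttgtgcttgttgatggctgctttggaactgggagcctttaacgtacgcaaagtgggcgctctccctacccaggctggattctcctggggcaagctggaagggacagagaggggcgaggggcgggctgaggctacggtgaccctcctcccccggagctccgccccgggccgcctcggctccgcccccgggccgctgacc
Tek: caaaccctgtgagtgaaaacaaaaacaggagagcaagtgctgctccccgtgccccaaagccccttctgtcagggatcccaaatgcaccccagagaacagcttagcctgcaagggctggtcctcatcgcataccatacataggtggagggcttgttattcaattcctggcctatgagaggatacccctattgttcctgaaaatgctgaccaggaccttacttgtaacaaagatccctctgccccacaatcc
Vegfa: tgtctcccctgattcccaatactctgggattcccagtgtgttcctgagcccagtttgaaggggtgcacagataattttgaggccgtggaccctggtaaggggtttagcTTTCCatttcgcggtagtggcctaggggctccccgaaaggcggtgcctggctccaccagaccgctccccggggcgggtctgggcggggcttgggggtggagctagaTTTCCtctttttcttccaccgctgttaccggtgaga
Vegfb: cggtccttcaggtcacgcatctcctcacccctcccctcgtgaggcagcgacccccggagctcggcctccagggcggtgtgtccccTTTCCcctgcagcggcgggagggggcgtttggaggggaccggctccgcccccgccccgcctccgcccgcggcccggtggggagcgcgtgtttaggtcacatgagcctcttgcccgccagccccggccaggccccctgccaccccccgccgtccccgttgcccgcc

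In these windows GGAAA matched 2 times before Kdr and 2 times before Vegfa, and 1 time each before Flt1 and Vegfb. CGGAA matched 1 time before Kdr, and Flt4 and Tek had no match to any of the 3 motifs. Over 32851 RefSeq promoter windows of the same length, 16.6% held ACGTG, 55.6% GGAAA and 25.2% CGGAA. None of the 6 windows shown held ACGTG. RefSeq gives Vegfa another window, chr17:46025164-46025413, which lies within the gene, is not shown and held 1 match to ACGTG and 1 to GGAAA. The Flt4 window shown also lies within the span given above for its gene. Windows were matched for 8 of the 10 genes, all but Angpt1 and Angpt2.

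Angpt1 had the largest change of the 10 genes. It was much lower in TAC WT than in Sham WT, and TAC KO lay between them. Angpt1 (ENSMUSG00000022309.9, chr15:42424723-42676977, minus strand) had 22.5, 18.2, 22.2 and 15.5 CPM in TAC KO, 7.63, 11.5, 7.29 and 6.25 CPM in TAC WT, and 26.7, 39.7, 39.2 and 37.3 CPM in Sham WT. The 3 ranges did not overlap. TAC WT differed from Sham WT by -2.13 (log2, SE 0.18, edgeR adjusted p = 8.10e-06), which is 4.37-fold lower. TAC KO was higher than TAC WT by 1.26 (log2, SE 0.18, edgeR adjusted p = 0.000258) and differed from Sham WT by -0.87 (SE 0.17, adjusted p = 0.00233). All 3 calls passed under every one of the 21 alternatives.

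Angpt1 shares 737 exon bases with Gm17473 on the opposite strand, and the strand setting of the counting is not given in the sources used here. Gm17473 had 305 counts over the 12 libraries, against 8287 for Angpt1. Mural cells and fibroblasts are among the known sources of Angpt1. Mural markers summed to 1369.9 to 1567 CPM in TAC KO, 1383 to 1742 CPM in TAC WT and 1526 to 1746 CPM in Sham WT. In TAC KO against TAC WT, 4 of 12 mural markers were higher and 1 lower (5 higher and 0 lower with the trends removed), and in TAC WT against Sham WT 1 was higher and 1 lower. Fibroblast markers summed to 2453 to 3118 CPM in TAC KO, 2038 to 2623 CPM in TAC WT and 1775 to 2016 CPM in Sham WT, with 3 of 10 higher in TAC KO than in TAC WT (2 with the trends removed), and 5 of 10 higher in TAC WT than in Sham WT. Beside these counts, 33% of all tested genes were called in TAC KO against TAC WT and 19.7% in TAC WT against Sham WT. The part of these cell types in the Angpt1 differences was not tested.

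Angpt2 (ENSMUSG00000031465.6, chr8:18690263-18741562, minus strand) lies within Mcph1 on the opposite strand and shares 0 exon bases with it. It had 3.92, 4.47, 4.25 and 4.67 CPM in TAC KO, 4.40, 5.66, 8.62 and 5.07 CPM in TAC WT, and 4.76, 6.21, 6.00 and 6.45 CPM in Sham WT. TAC KO lay below Sham WT in every library, at -0.43 (log2, SE 0.18, edgeR adjusted p = 0.0811), and overlapped with TAC WT at -0.46 (SE 0.18, adjusted p = 0.0596). TAC WT 3, at 8.62 CPM, set much of the TAC WT spread, and without it TAC KO passed against Sham WT (edgeR adjusted p = 0.0163). In TAC WT against Sham WT the difference was 0.02 (log2, SE 0.17, edgeR adjusted p = 0.944).

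**Figure D2:**
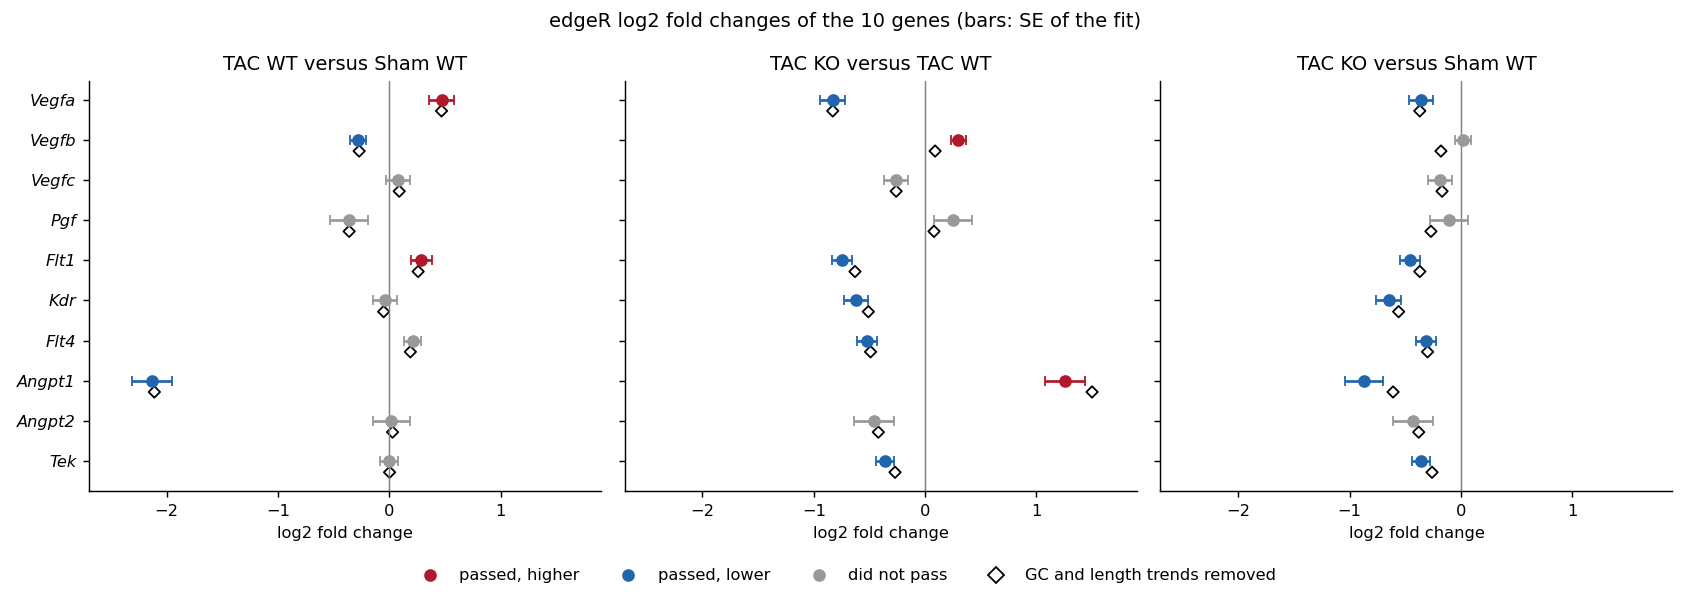
Points give the edgeR log2 fold change of each gene in the 3 comparisons, with the SE of the fit as bars and colour for the call, and open diamonds give the value with the GC and length trends removed. Angpt1 lies at -2.13, 1.26 and -0.87, and the 4 receptors lie below 0 in both TAC KO comparisons.

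Counted over the 10 genes, all of which passed the filter on low counts, 4 were called in TAC WT against Sham WT, 2 higher and 2 lower, where 19.7% of all 15477 tested genes were called, 9.67% higher and 10% lower. In TAC KO against TAC WT, 7 were called, 2 higher and 5 lower, where 33% of tested genes were called, 15.7% higher and 17.3% lower. TAC KO against Sham WT gave 6 calls, all lower, where 27.6% of tested genes were called, 12.8% higher and 14.8% lower. Library ranges were apart for 4, 7 and 7 of the genes in these comparisons, in that order, against 24.7%, 28.5% and 30.7% of tested genes. The median log2 difference of the 10 genes was 0.01, -0.41 and -0.36 in the same order, and that of all tested genes was 0.0 in each. At a minimum change of 1.5-fold, 1, 4 and 2 of the 10 genes were called, against 8.06%, 8.61% and 7.57% of tested genes. Because the genes were chosen with earlier results of these data known, these shares describe them and do not test the set.

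Levels of different genes were compared as CPM per kb of merged exon. Flt1 has 13504 merged exon bases but a longest transcript of 6895 bases, while Tek has 4712 and 4654. The order of Flt1 and Tek therefore depends on the length used. In TAC KO the order was Vegfb (157), Vegfa (80.7), Kdr (24.7), Tek (12.7), Flt1 (10.2), Angpt1 (3.77), Flt4 (3.66), Vegfc (3.38), Pgf (1.95) and Angpt2 (1.17 CPM per kb), where Angpt1, Flt4 and Vegfc overlapped as neighbours. In TAC WT, Vegfa (143) and Vegfb (128 CPM per kb) overlapped at the top, and Pgf (1.64), Angpt2 (1.61) and Angpt1 (1.57 CPM per kb) overlapped at the bottom. Sham WT had Vegfb (155) above Vegfa (104 CPM per kb) without overlap, and Angpt1 (6.86 CPM per kb) above Flt4 (4.53 CPM per kb). Angpt1 thus took the last place of the 10 genes in TAC WT and the sixth place in TAC KO and in Sham WT.

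**Figure D3:**
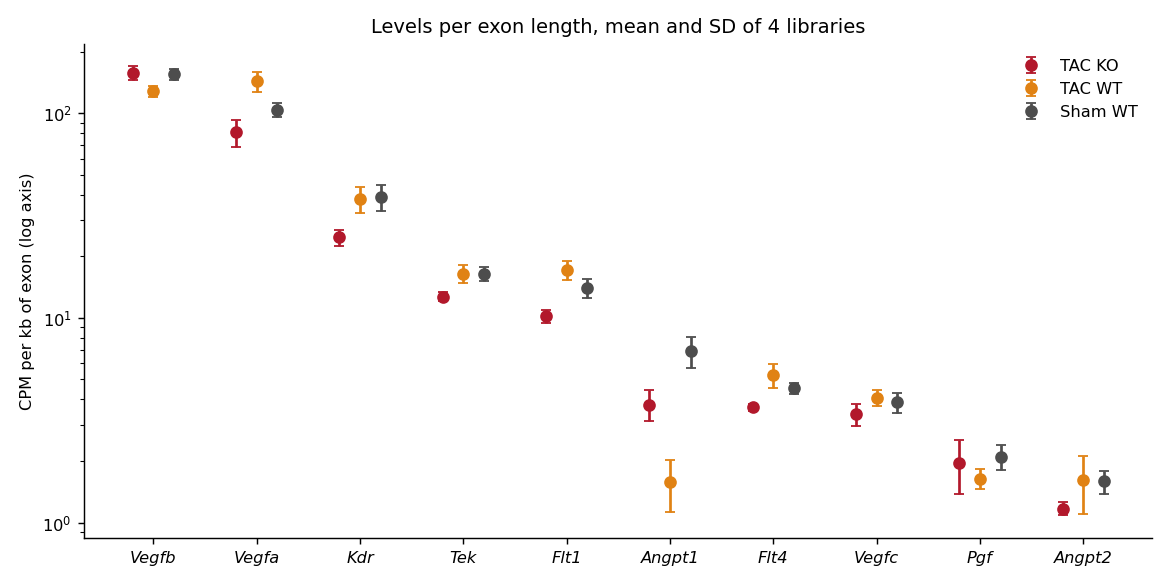
The vertical axis is CPM per kb of merged exon on a log scale, with the mean and SD of 4 libraries for each gene in TAC KO, TAC WT and Sham WT. Vegfb and Vegfa stand highest, at 80.7 to 157 CPM per kb, and the Angpt1 mean is 1.57 CPM per kb in TAC WT.

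Ratios within a library need no scaling between libraries, but they can still carry the GC and length trends. The Angpt2 to Angpt1 ratio of counts was 0.174, 0.246, 0.192 and 0.301 in TAC KO, 0.578, 0.494, 1.18 and 0.812 in TAC WT, and 0.178, 0.157, 0.153 and 0.173 in Sham WT. Every TAC WT library exceeded every other library. The mean log2 ratio was -2.16 ± 0.36 in TAC KO, -0.47 ± 0.56 in TAC WT and -2.60 ± 0.11 in Sham WT (SD, n = 4 each). The Vegfa to Vegfb ratio of counts was 0.984, 1.63, 1.56 and 1.39 in TAC KO, 3.24, 2.97, 3.13 and 2.65 in TAC WT, and 1.57, 1.76, 1.84 and 2.02 in Sham WT. Here too the TAC WT libraries stood above the rest, and TAC KO 1 was the lowest.

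For these ratios, TAC WT against Sham WT differed by 2.13 (Angpt2 to Angpt1) and 0.74 (Vegfa to Vegfb) on the log2 scale, and TAC KO against TAC WT by -1.70 and -1.13. Each of these differences reached p = 0.0286 in a two-sided exact permutation test, the smallest p that 4 against 4 libraries allow. After adjustment over 12 tests (4 ratios and 3 comparisons) the value was 0.0686, so none passed 0.05. With the GC and length trends removed, TAC KO against TAC WT gave -1.89 (Angpt2 to Angpt1) and -0.93 (Vegfa to Vegfb). TAC WT against Sham WT then gave 2.13 and 0.73. The exact p stayed at 0.0286 for each, with an adjusted value of 0.0857. The Flt1 to Kdr ratio was higher in TAC WT (-0.57 ± 0.13, log2) than in Sham WT (-0.89 ± 0.11), by 0.32 with the same exact p of 0.0286 and adjusted value of 0.0686 (exact p = 0.0571 with the GC and length trends removed). In TAC KO it was -0.70 ± 0.18, which overlapped with both. The Pgf to Vegfb ratio differed by at most 0.15 (log2) in size in any comparison, with adjusted values of the exact test from 0.48 to 0.657.

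**Figure D4:**
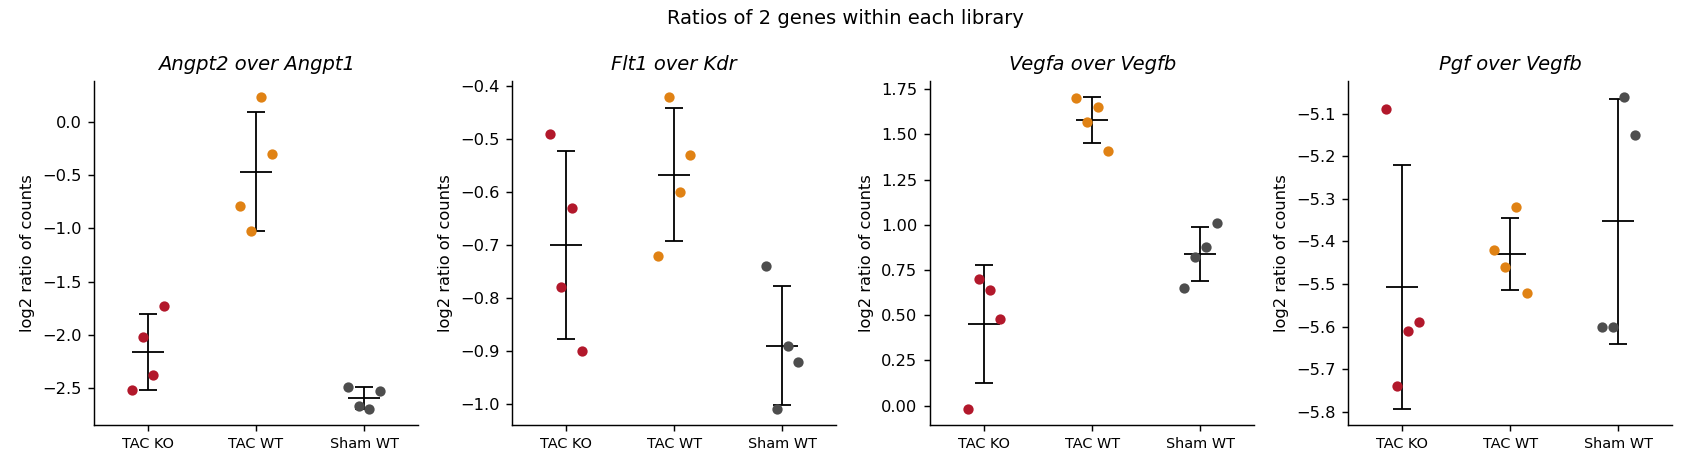
The vertical axes give the log2 ratio of counts of 2 genes within each library, with a point per library and the mean and SD of 4 as bars. TAC WT stands apart from TAC KO and Sham WT for Angpt2 over Angpt1 (mean -0.47) and for Vegfa over Vegfb (mean 1.58).

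The receptors were also set against 18 other endothelial markers of the same library. These markers summed to 1543 to 1862 CPM in TAC KO, 1705 to 2080.1 CPM in TAC WT and 1673 to 1779.9 CPM in Sham WT. In TAC KO against TAC WT, 1 was higher (Ramp2) and 3 were lower (Erg, Tal1 and Mmrn2), with a median log2 difference of -0.16. The call of Mmrn2, a vessel matrix gene, was lost under several alternatives (adjusted p = 0.105 without TAC WT 3). With the GC and length trends removed, 0 of the 18 were higher and 6 lower (Cldn5, Egfl7, Eng, Erg, Mmrn2 and Tal1), with a median of -0.21. In TAC WT against Sham WT 2 were higher and 0 lower, and in TAC KO against Sham WT 1 was higher and 2 were lower. Of all tested genes, 33% were called in TAC KO against TAC WT, 19.7% in TAC WT against Sham WT and 27.6% in TAC KO against Sham WT. With the trends removed, 4040 of 15477 were called in TAC KO against TAC WT, 2127 higher and 1913 lower. The junction gene Cdh5 gave -0.03 (log2, edgeR adjusted p = 0.754) and the adhesion gene Pecam1 -0.15 (adjusted p = 0.119) in TAC KO against TAC WT.

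Relative to the mean log2 CPM of those markers, Flt1 stood at 1.19 ± 0.11 in TAC KO, 1.77 ± 0.08 in TAC WT and 1.62 ± 0.13 in Sham WT (SD, n = 4 each). Kdr stood at 1.89 ± 0.20 in TAC KO, 2.34 ± 0.09 in TAC WT and 2.51 ± 0.19 in Sham WT. Flt4 stood at -0.99 ± 0.09 in TAC KO, -0.65 ± 0.09 in TAC WT and -0.72 ± 0.06 in Sham WT. On this measure TAC KO was lower than TAC WT, with log2 differences of -0.58 (Flt1), -0.44 (Kdr) and -0.34 (Flt4). Each had an exact permutation p of 0.0286 and 0.049 after adjustment over 12 tests, and against Sham WT the same values held for differences of -0.43, -0.62 and -0.27. Tek differed from Sham WT by -0.33 (exact permutation p = 0.0286, adjusted 0.049) and from TAC WT by -0.19 (exact p = 0.114, adjusted 0.152). With the GC and length trends removed, an alternative chosen after seeing the data, no receptor passed. TAC KO against TAC WT then gave -0.40 (Flt1), -0.28 (Kdr), -0.25 (Flt4) and -0.04 (Tek), with exact adjusted values of 0.0571 for Flt1, Kdr and Flt4 and 0.657 for Tek. The exact permutation p of Flt1, Kdr and Flt4 stayed at 0.0286, the smallest possible, against TAC WT and against Sham WT. Their adjusted value depends on how many of the 12 tests reach that p, with or without the trends. In TAC WT against Sham WT no receptor passed on the uncorrected measure, with differences from -0.17 to 0.15 and exact adjusted values of 0.152 and above.

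**Figure D5:**
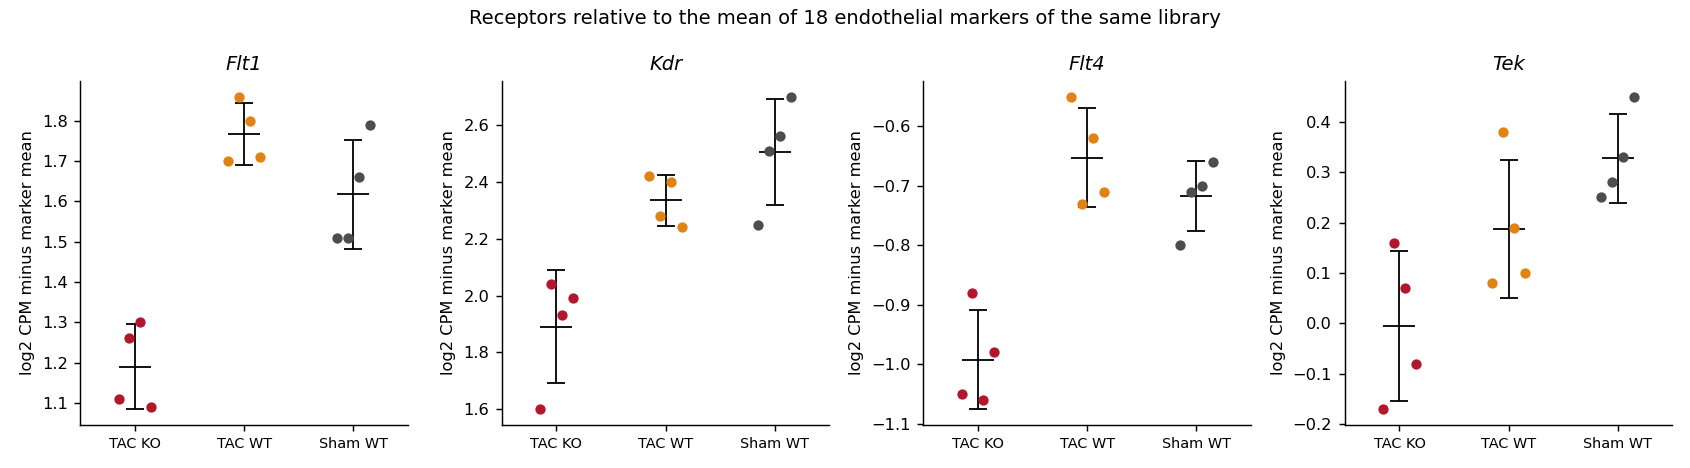
The vertical axes give log2 CPM of each receptor minus the mean log2 CPM of 18 endothelial markers in the same library, with a point per library and the mean and SD of 4 as bars. The values are without removal of GC and length trends. All TAC KO libraries lie below all wild-type libraries for Flt1, Kdr and Flt4, and TAC KO overlaps with TAC WT for Tek.

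Partners of the pathway were counted in the same fits. Their counts stand beside 33% of all tested genes called in TAC KO against TAC WT, 19.7% in TAC WT against Sham WT and 27.6% in TAC KO against Sham WT. Counts with the trends removed stand beside 4040 of 15477 tested genes called in TAC KO against TAC WT, 2127 higher and 1913 lower. For TAC KO against Sham WT they stand beside 3264 called, 1682 higher and 1582 lower. Of 13 co-receptors and partners 12 were tested, and in TAC KO against TAC WT 2 were higher and 5 lower (2 and 4 with the trends removed), with a median log2 difference of -0.25. Nrp2, a co-receptor of Flt4 and Kdr, had 51.1 ± 3.54 CPM in TAC KO and 82.5 ± 14.7 CPM in TAC WT (SD, n = 4 each). The log2 difference was -0.69 (SE 0.11, edgeR adjusted p = 0.000468). Nrp1, a co-receptor of Kdr, had 93.6 ± 6.31 CPM in TAC KO and 129.7 ± 7.29 CPM in TAC WT, and this gene differed by -0.47 (log2, SE 0.09, edgeR adjusted p = 0.0021). The heparan sulphate proteoglycan gene Gpc1 was higher, at 577 ± 76.0 CPM in TAC KO and 420.0 ± 40.7 CPM in TAC WT (log2 0.46, edgeR adjusted p = 0.00217). Tie1, the partner of Tek, gave 0.02 (log2, edgeR adjusted p = 0.908). In TAC KO against Sham WT 2 were higher and 5 lower (2 and 3 with the trends removed, where Nrp1 and Ptprb were not called). The higher ones included Vegfd, another ligand of Flt4, at 3.43 ± 0.583 CPM in TAC KO and 1.51 ± 0.272 CPM in Sham WT (log2 1.17, edgeR adjusted p = 0.000332). In TAC WT against Sham WT 2 were higher and 0 lower.

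Of 14 targets of hypoxia signalling, 3 were higher and 0 lower in TAC WT than in Sham WT, and 0 were higher and 3 lower in TAC KO than in TAC WT (2 lower with the trends removed). P4ha1, a collagen prolyl hydroxylase, had 75.7 ± 8.11 CPM in TAC KO, 153 ± 22.6 CPM in TAC WT and 82.4 ± 5.88 CPM in Sham WT. TAC WT stood highest in P4ha1, with log2 differences of 0.89 from Sham WT (edgeR adjusted p = 5.13e-05) and -1.02 for TAC KO against TAC WT (adjusted p = 2.28e-05). In each of these comparisons 11 of the 14 targets did not pass. The median log2 difference of the list was 0.09 in TAC WT against Sham WT and -0.14 in TAC KO against TAC WT. Of 11 tested hypoxia regulators, 0 were higher and 3 lower in TAC WT than in Sham WT, and 1 was higher and 2 lower in TAC KO than in TAC WT (2 and 2 with the trends removed). Hif1a, the oxygen-regulated factor, gave 0.30 in TAC WT against Sham WT (log2, edgeR adjusted p = 0.12) and -0.05 in TAC KO against TAC WT, and neither passed. In TAC KO against Sham WT 1 hypoxia target and 1 regulator were higher, and 0 targets and 4 regulators were lower. With the trends removed, 1 target and 2 regulators were higher, and 1 target and 3 regulators were lower. The regulators called then included Hif1a and Hif1an.

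Of 17 Notch and tip cell genes, which pattern sprouting vessels downstream of VEGF, 0 were higher and 4 lower in TAC KO than in TAC WT (6 lower with the trends removed). Jag1, a Notch ligand, had 14.6 ± 1.35 CPM in TAC KO and 22.2 ± 1.22 CPM in TAC WT (log2 -0.60, edgeR adjusted p = 0.000438). The other comparisons of this list had 1 higher and 1 lower (TAC WT against Sham WT) and 1 higher and 2 lower (TAC KO against Sham WT). With the trends removed, TAC KO against Sham WT had 1 higher and 5 lower. Of 22 genes downstream of VEGF receptors, 2 were higher and 6 lower in TAC KO than in TAC WT (2 and 7 with the trends removed). In TAC WT against Sham WT 5 were higher and 2 lower. In TAC KO against Sham WT 5 were higher and 3 lower (4 and 3 with the trends removed). Akt1, a survival kinase, had 245 ± 9.90 CPM in TAC KO, 121 ± 3.65 CPM in TAC WT and 154 ± 4.44 CPM in Sham WT. It was higher in TAC KO than in TAC WT by 1.02 (log2, edgeR adjusted p = 4.27e-08), opposite to the receptors. Mapk3 was also higher (0.30), but not with the trends removed (0.12, edgeR adjusted p = 0.0795). The 6 lower ones were Egr3 (log2 -1.51, edgeR adjusted p = 0.00236), Nr4a1 (-1.30), Rcan1 (-1.03), Ptk2 (-0.28), Foxo1 (-0.24) and Shc1 (-0.20). Erg, an ETS factor of endothelial cells, had 13.9 ± 1.95 CPM in TAC KO, 25.5 ± 2.63 CPM in TAC WT and 25.3 ± 0.93 CPM in Sham WT, with -0.87 for TAC KO against TAC WT (log2, edgeR adjusted p = 4.03e-05).

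Genes with the most similar profiles were found over the 12 libraries among 11867 protein-coding genes, as the smallest root mean square (RMS) difference between centred log2 CPM values. For Kdr they were Ets1 (0.087) and Creb1 (0.099), for Flt1 Zc3h13 (0.07) and Ccar1 (0.078), and for Flt4 Itpr2 (0.06) and Itsn2 (0.08). Tek was nearest to Rgs5 (0.056) and Rbm5 (0.067), Vegfb to Prkag1 (0.043) and Aes (0.044), and Vegfa to Zfp322a (0.128) and Chordc1 (0.13). Angpt1 had no gene as close, the nearest being Klhl33 (0.296) and Clcn1 (0.334). The RMS difference tends to grow with the size of the changes, which were largest for Angpt1. Klhl33 gave log2 differences of -1.86 (TAC WT against Sham WT), 1.11 (TAC KO against TAC WT) and -0.75 (TAC KO against Sham WT). Profiles were compared without removal of GC and length trends.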

How the data were processed

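RNA was isolated from hearts 6 weeks after surgery, and directional libraries were made from 250 ng of RNA after polyA selection, per the labels' protocols. The deposited values were raw whole-number counts per gene, 1 table per library. The submitters' processing notes name the build GRCm38, and the tools featureCounts 1.6.4, STAR, StringTie 1.3.5, DESeq2, Trim Galore 0.5.0, FastQC 0.11.8, bcl2fastq and MultiQC 1.7. Their roles and settings, the annotation and the strand setting are not given in the sources used here. Record names were matched to GENCODE annotation without version suffix, and 54079 of 54146 records received a symbol.

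The counts were tested with the quasi-likelihood test of edgeR 4.0.16 in R 4.3.3, with TMM scaling and filterByExpr, all 12 libraries in 1 fit, and Benjamini-Hochberg adjustment over 15477 tested genes at 0.05 in each comparison. The procedure was tested on simulated data. CPM are over TMM-scaled library sizes, and a floor of 3 counts was 0.083 to 0.114 CPM. It covers counting error only, since reads carry no molecular identifiers. Ratios and receptor levels relative to endothelial markers were tested by exact permutation (scipy 1.17.1). Replicates were numbered in accession order. All 10 genes were named in every comparison, and from each other list up to 3 passing genes of smallest adjusted p per comparison, while other genes named were chosen after their values were seen. The members and all lists were chosen with earlier results of these data known. Alternatives were DESeq2 1.42.0, limma 3.58.1 (voom), sva 3.50.0, upper-quartile scaling, other filters, removal of GC and length trends, a 1.5-fold minimum, fits of the compared groups alone and leaving out each library. No transcript of the 10 genes had a near-identical copy by minimap2 2.31-r1302.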

Additional observations from a re-analysis of the deposited data

Results flagged for a closer look

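Flt1 in TAC WT 3 stood at 267 CPM, against 216 to 222 CPM in the other TAC WT libraries, a gap that made up 0.889 of the range of the group and exceeded Dixon's 95% critical value for 4 libraries. It was the single case among 42 groups of 4 examined, and chance gives about 1 in 20. TAC WT 3 was also the highest TAC WT library for Vegfa (695 CPM), Vegfb (222 CPM), Vegfc (10.7 CPM), Pgf (5.52 CPM), Kdr (403 CPM), Flt4 (49.7 CPM), Tek (87.2 CPM) and Angpt2 (8.62 CPM), all of the 10 genes but Angpt1.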

How the results depend on the processing

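No paired analysis was possible because the labels give no replicate numbers. With 1 surrogate variable, 1 member instead of 4 was called in TAC WT against Sham WT (edgeR adjusted p = 0.0588 for Vegfa, 0.123 for Vegfb and 0.12 for Flt1), and 1526 instead of 3051 genes overall (9.86% and 19.7% of those tested). The cause was not tested. Leaving out 1 library gave 3 to 5 calls in TAC WT against Sham WT, 7 to 8 in TAC KO against TAC WT and 4 to 7 in TAC KO against Sham WT, where 14.4% to 22.2%, 25.3% to 32.4% and 19.6% to 28.6% of all tested genes were called. A minimum of 1.5-fold left 1, 4 and 2 calls, by its construction. Of the 30 pairs of member and comparison, 14 kept direction and call under all 21 alternatives.

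In TAC WT against Sham WT, differences near 0 changed sign. Vegfc was -0.02 with the surrogate variable. Angpt2 was -0.18 with voom and ranged from -0.21 to 0.15 without single libraries. Kdr ranged from -0.12 to 0.04 and Tek from -0.06 to 0.05 in the same way, and Tek was -0.0034 with upper-quartile scaling, -0.05 with voom and -0.002 with no filter. In TAC KO against Sham WT, Vegfb was -0.18 with the GC and length trends removed and ranged from -0.02 to 0.05 without single libraries. The cause was not tested.

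Angpt2 in TAC KO against TAC WT passed with DESeq2 (adjusted p = 0.0442), with no filter (0.0357) and without TAC WT 1 (-0.58, 0.0239). Relative to Pecam1 and Cdh5 alone, Flt1 (0.27) and Flt4 (0.19) passed the exact test in TAC WT against Sham WT (adjusted 0.0381 each). Relative to 8 capillary markers, Tek passed in TAC KO against TAC WT (-0.48, adjusted 0.0429), while Kdr (0.0039) and Tek (0.04) changed sign in TAC WT against Sham WT. With the GC and length trends removed, these receptor values relative to the 18 endothelial markers no longer passed. In TAC KO against TAC WT they were Flt1 (-0.40), Kdr (-0.28) and Flt4 (-0.25). In TAC KO against Sham WT they were Flt1 (-0.28), Kdr (-0.47), Flt4 (-0.22) and Tek (-0.18). Exact adjusted values were 0.0571, and 0.098 for Tek. The exact permutation p of Flt1, Kdr and Flt4 stayed at 0.0286, the smallest possible, and that of Tek was 0.0571.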

Other observations

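Macrophages can also carry Flt1. Of 10 macrophage markers, 5 were higher and 0 lower in TAC KO than in TAC WT (7 and 0 with the GC and length trends removed), with summed levels of 209 to 263 CPM in TAC KO, 139 to 194 CPM in TAC WT and 159.6 to 178 CPM in Sham WT. The complement gene C1qb had 47.8 CPM in TAC KO and 30.6 CPM in TAC WT (log2 0.64, edgeR adjusted p = 0.000389). Against Sham WT 6 of 10 were higher in TAC KO. Among 9 capillary endothelial markers, which include Kdr, 2 were higher (Car4 and Aqp7) and 1 lower (Kdr itself) in TAC KO than in TAC WT. With the trends removed 1 was higher (Cd36) and 1 lower (Kdr), and neither Car4 (edgeR adjusted p = 0.0616) nor Aqp7 (adjusted p = 0.0999) passed. The sum of these markers was 2825 to 3479.9 CPM in TAC KO, 2955 to 3379 CPM in TAC WT and 3199.5 to 3435 CPM in Sham WT. Among 12 arterial, venous and endocardial markers 2 were higher and 3 lower in TAC KO than in TAC WT (1 and 4 with the trends removed). The arterial ephrin gene Efnb2 had 26.3 CPM in TAC KO and 40.8 CPM in TAC WT (log2 -0.63, edgeR adjusted p = 7.81e-05). Npr3 (-0.96) and Nr2f2 (-0.40) were also lower. Cytl1 (log2 0.88, edgeR adjusted p = 0.00246) and Gja4 (0.35, adjusted p = 0.0270) were higher, and Gja4 was not called with the trends removed. Of 7 lymphatic markers, which include Flt4, 0 were higher and 2 lower (Flt4 itself and Mmrn1) in TAC KO than in TAC WT, and Mmrn1 was lost with the trends removed (adjusted p = 0.325) and under 7 other alternatives. In TAC KO 3 were higher and 2 lower against Sham WT (2 and 1 with the trends removed). Beside the counts of these lists, 15.7% of all tested genes were higher and 17.3% lower in TAC KO than in TAC WT. Against Sham WT 12.8% were higher and 14.8% lower in TAC KO. With the trends removed, 2127 of 15477 were higher and 1913 lower in TAC KO than in TAC WT, and 1682 higher and 1582 lower than in Sham WT.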
